A study of Mus musculus with 12 samples.

Results

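The nucleosome positions compared here are those of round spermatids digested with 2 U of micrococcal nuclease (MNase) and of meiotic germ cells digested with 1 U. The members are all intervals in the authors' 2 lists for these groups, 60077 calls for the meiotic fraction (called M below) and 27101 for the round spermatid fraction (RS), 87178 of the 415758 calls in the 6 lists of the series. Both fractions came from adult male SV129 mice aged 8 to 12 weeks, a strain with no allele or drug treatment named in the labels. Testes of 11 mice were pooled for each collection by STAPUT velocity sedimentation, and fractions with a purity of at least 85% were kept. The titles call M a meiotic spermatid fraction while the protocol calls it meiotic, so the cells behind that name are known only as far as these words go. Digestion lasted 7.5 min at 37 °C for every sample, with 2 times as many cells for RS, so that 2 U on RS and 1 U on M is the same amount of enzyme per cell. It was not the same amount per unit of DNA, because a haploid round spermatid holds less DNA than a meiotic cell. Each group has 2 replicates, and the authors called nucleosomes on both together. Each group therefore has 1 list, no difference could be set against replicate error, and no test between the stages was made. Counts of calls carry 95% intervals, which reflect counting error alone and come out too narrow, as neighbouring calls overlap.

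Nucleosomes are the units of chromatin, DNA wound around a core of histones. MNase cuts the linker DNA between them first, and with more digestion it also cuts exposed nucleosomes, so a call marks DNA that was protected at that dose and was sequenced often enough. In round spermatids the histones are still in place. Later in spermiogenesis they become hyperacetylated and are replaced by transition proteins and then by protamines, which pack the genome into the sperm head. The X and Y chromosomes are silenced in meiotic cells and remain compact and largely silent in round spermatids.

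Transcription start sites were examined first, because strong promoters carry well-placed nucleosomes on both sides of an open start. The question was whether the 2 lists show the same flanking nucleosomes. Calls in dense bins, 10 kb in size with over 20 calls in at least 1 of the 6 lists, were left out. A call near several starts was counted once for each, here and below for start sites. The counts are thus pairs of a start and a call midpoint, and intervals that treat them as independent are narrower still. Around 32817 RefSeq start sites, M had 921 such pairs within 300 bp of a start and 491 between 500 and 1000 bp away. RS had 356 and 269. Per bp, calls were thus 3.13 times as dense near the start as farther away in M and 2.21 times in RS, a ratio of RS to M of 0.706 (0.582 to 0.855).

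This difference stood at CpG-rich starts, the class that includes most housekeeping promoters. In the summed counts it came from the far side. At the 9855 starts whose 300 bp window had a GC content of at least 55% and an observed over expected CpG ratio of at least 0.6, the near calls numbered 341 in M and 129 in RS, which is 668 and 624 per 100000 calls of the lists outside dense bins (ratio 0.934, 0.757 to 1.15). The far calls numbered 79 in M and 74 in RS, or 155 and 358 per 100000 (ratio 2.31, 1.66 to 3.22). Near over far was 7.19 in M and 2.91 in RS, with a ratio of 0.404 (0.277 to 0.588). At the 22962 other starts it was 2.35 and 1.94, with a ratio of 0.827 whose interval included 1 (0.657 to 1.04).

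The profile had the same outline in the 2 lists, but its values near the start differed. At CpG-rich starts 67 and 77 M calls lay in the bins from 300 to 200 and from 200 to 100 bp upstream, and 31 and 25 RS calls. The 100 bp just upstream of the start held 28 M calls and 5 RS calls, and the bin from 100 to 200 bp downstream held 95 and 41. Both lists therefore had a peak on each side of the start and fewer calls between them. Per 100000 calls, RS was lower across the start, with 24.2 against 54.9 in M in the 100 bp upstream. In the 100 bp downstream the values were 62.9 and 113.7. From 200 to 300 bp downstream RS was higher, with 67.8 against 31.4. Some of these bins hold few calls. In the plot of calls around start sites the RS line for CpG-rich starts lies above that of M beyond the downstream peak.

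**Figure D1:**
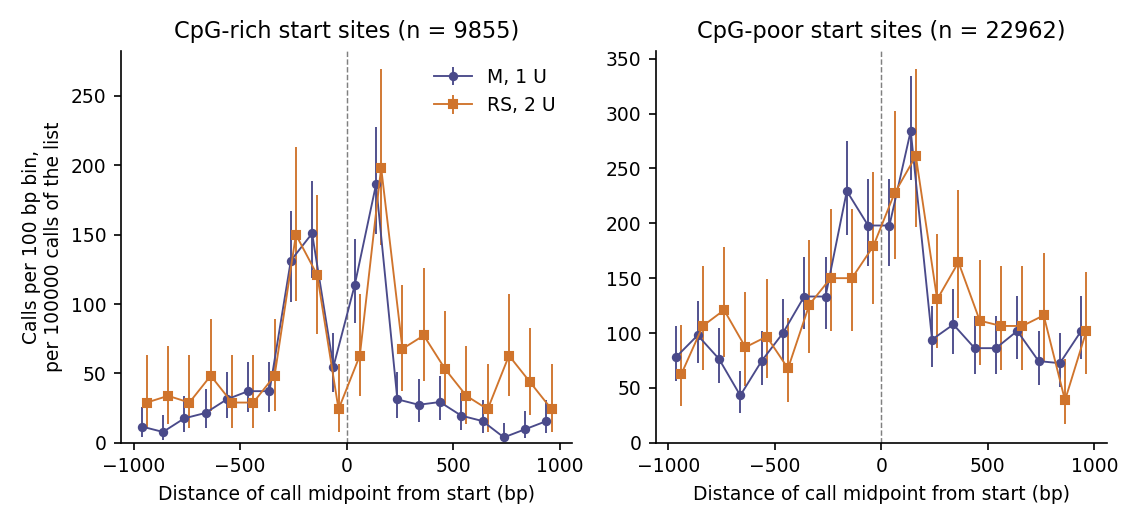
Calls outside dense bins around RefSeq start sites, for CpG-rich and other starts, as call midpoints per 100000 calls in bins of 100 bp (y axis) against distance from the start in bp (x axis), for M at 1 U (circles) and RS at 2 U (squares), with exact Poisson 95% intervals as bars. A call near several starts counts once for each. At CpG-rich starts both lines peak upstream and downstream of the start, and RS is higher than M between 500 and 1000 bp away (358 against 155 per 100000 in all).

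Promoter windows of 300 bp, from 250 bp before to 50 bp after a start in the RefSeq table of GRCm38.p6, show where single calls lie. Of 32817 windows of 26994 genes, 463 (1.41%) overlapped a call of M by at least 1 base and 200 (0.609%) a call of RS. Per 100000 calls that is 771 and 738 windows, a ratio of 0.958 (0.807 to 1.13). Calls of both lists were found in 20 windows (0.0609% of all), calls of M alone in 443 and calls of RS alone in 180. In dense bins lay 7 of the 20, 9 of the 443 and 2 of the 180. The median GC content was 53.7% for windows of M alone and 54.5% for those of RS alone, against 52.7% for the windows without calls, and the median number of CpG was 10, 11.5 and 7. The 20 windows with calls of both lists had medians of 52% GC and 3 CpG. Windows called in 1 list were thus close to each other in base composition.

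The following windows are shown to let the base composition of called promoter DNA be seen, with capitals for the bases inside calls. Several windows with the most calls in each class lie in dense bins (those of 1600014C10Rik, D530033B14Rik, Gm40904 and Prl2c3) and are not shown. Alad and Ranbp1 were chosen after their values were seen. Alad, at chr4:62519860-62520159 on the minus strand, encodes an enzyme of haem synthesis and overlapped 3 calls in M and 2 in RS. In M the calls covered the last 62 bases of the window, and in RS the last 37, all of them downstream of the start.
Alad with calls of M: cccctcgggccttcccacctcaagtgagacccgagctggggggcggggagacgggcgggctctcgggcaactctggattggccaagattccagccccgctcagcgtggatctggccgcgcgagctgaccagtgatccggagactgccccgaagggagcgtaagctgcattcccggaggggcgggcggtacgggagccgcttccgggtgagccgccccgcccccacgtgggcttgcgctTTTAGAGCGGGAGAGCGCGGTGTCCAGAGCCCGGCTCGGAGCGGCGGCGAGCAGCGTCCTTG
Alad with calls of RS: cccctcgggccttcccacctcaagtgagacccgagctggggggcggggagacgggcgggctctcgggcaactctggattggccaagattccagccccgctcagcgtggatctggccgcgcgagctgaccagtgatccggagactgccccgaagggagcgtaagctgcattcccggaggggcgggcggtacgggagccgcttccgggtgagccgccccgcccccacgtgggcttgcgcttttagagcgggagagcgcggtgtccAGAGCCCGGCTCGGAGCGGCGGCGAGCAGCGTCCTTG
Elmo2, at chr2:165326430-165326729 on the minus strand, encodes an engulfment and cell motility protein and had 0 calls in M and 3 in RS, over the first 83 bases. The transcript gene 1700030J22Rik, at chr8:116978604-116978903 on the minus strand, also had 0 and 3, over the first 172 bases. In both windows the called bases lie upstream of the start.
Elmo2 with calls of RS: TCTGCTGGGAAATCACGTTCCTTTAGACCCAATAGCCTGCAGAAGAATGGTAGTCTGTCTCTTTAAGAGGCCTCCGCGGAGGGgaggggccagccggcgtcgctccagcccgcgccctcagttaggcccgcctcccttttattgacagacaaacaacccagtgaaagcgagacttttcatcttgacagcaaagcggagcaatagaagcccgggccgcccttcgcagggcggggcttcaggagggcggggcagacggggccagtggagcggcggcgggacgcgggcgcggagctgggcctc
1700030J22Rik with calls of RS: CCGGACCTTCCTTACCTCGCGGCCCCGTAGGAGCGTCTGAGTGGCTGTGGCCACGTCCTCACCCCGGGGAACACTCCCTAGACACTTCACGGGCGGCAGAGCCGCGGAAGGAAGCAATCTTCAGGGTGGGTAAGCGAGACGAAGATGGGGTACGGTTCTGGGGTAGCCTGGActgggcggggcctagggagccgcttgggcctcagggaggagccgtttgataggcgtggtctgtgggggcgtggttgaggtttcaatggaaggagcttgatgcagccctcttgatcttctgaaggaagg
Ranbp1, at chr16:18248645-18248944 on the minus strand, encodes a partner of the nuclear transport GTPase Ran and shares its upstream region with the divergent gene Trmt2a. It had 4 calls in M and 0 in RS, over the first 158 bases. The transcript gene 4930594O21Rik, at chr3:37613663-37613962 on the plus strand, also had 4 and 0, over 200 bases that end 32 bp before the start.
Ranbp1 with calls of M: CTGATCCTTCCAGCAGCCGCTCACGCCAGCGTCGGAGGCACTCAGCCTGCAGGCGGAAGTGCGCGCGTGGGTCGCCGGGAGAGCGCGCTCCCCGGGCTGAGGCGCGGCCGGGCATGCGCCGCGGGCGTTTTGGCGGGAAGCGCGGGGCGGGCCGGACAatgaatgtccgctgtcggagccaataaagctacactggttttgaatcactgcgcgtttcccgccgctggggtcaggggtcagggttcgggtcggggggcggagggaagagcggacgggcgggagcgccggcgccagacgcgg
4930594O21Rik with calls of M: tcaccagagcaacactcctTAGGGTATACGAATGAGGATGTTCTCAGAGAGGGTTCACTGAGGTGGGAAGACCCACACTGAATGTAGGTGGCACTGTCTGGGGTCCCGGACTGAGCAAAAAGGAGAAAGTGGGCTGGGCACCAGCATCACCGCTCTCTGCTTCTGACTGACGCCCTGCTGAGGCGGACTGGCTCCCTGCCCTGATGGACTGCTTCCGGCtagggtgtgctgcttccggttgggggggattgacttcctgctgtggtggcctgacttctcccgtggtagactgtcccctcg
The windows of Ranbp1, Alad, Elmo2, 1700030J22Rik and 4930594O21Rik hold 42, 33, 24, 19 and 9 CpG, against the median of 7 in windows without calls. They do not stand for called windows in general. Among called windows outside dense bins that are not shown, that of Trmt2a also held 42 CpG. Those of Gm26535 held 0, of Gm41331 2 and 3, and of Gm33041 and Gm32073 3 each. With 4 calls or fewer in each, which overlap one another, these windows illustrate positions and do not show a difference between the stages.

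The lists differ in size, and the sequencing depth behind them is not given, which limits every comparison. RS had 0.451 times as many calls as M. The authors' p-values, which match Poisson tails, imply a minimum of 6 reads per call in both lists and a mean of 0.484 reads per window in M and 0.409 in RS. These means are the only guide to depth. Over the 6 lists, RS at 2 U had the lowest mean and the fewest calls, and RS at 0.5 U the highest mean (0.696) and the most calls (179133). Out of that order, M at 0.5 U had 42178 calls at 0.434 and RS at 1 U had 41655 at 0.472. Whether depth accounts for the list sizes was not tested. At the minimum stood 68.5% of the calls in M and 66.0% in RS, and 6.48% and 11.3% had 10 or more reads. After merging overlapping calls, M had 36910 positions covering 5.86 Mb and RS had 15845 covering 2.56 Mb. With calls of over 6 reads in both lists the ratio was 0.486. Raising the minimum to 7 reads in M alone, which drops the M calls at the minimum by construction, gave 1.43. Stage, sequencing depth and extent of digestion cannot be told apart as causes of any difference below. Values are therefore given per 100000 calls of a list or relative to its own autosomes, and the marker genes of a cell type cannot be used to check purity, since calls are not expression.

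The X chromosome had fewer calls in RS than in M for its size. There were 787 calls on X in M and 154 in RS. Relative to the autosomes of the same list, calls per bp on X were 0.199 in M and 0.0890 in RS, a ratio of 0.447 (0.374 to 0.532). No autosome came near this value: their ratios, on the same measure, ran from 0.760 on chromosome 3 (0.712 to 0.811) to 1.39 on chromosome 11 (1.31 to 1.48). The Y chromosome, with 105 and 59 calls, had a ratio of 1.28 whose interval included 1 (0.918 to 1.78). Both sex chromosomes are present at a lower dose than an autosome in either fraction, and calls fall more steeply than coverage, so the densities are not measures of dose. Under the Poisson model of each list, the X densities correspond to 0.751 of the mean coverage in M and 0.655 in RS. These values lie closer together than the densities, and the fit of the model on X was not tested. In the other pair with equal MNase per cell, RS at 1 U over M at 0.5 U, which has no list in common with this one, the X ratio was 0.219 (0.186 to 0.257).

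M had calls over more of X than RS, in counts from lists of unlike size. X spans 170 whole bins of 1 Mb. Bins of X with a call, any partial bin at the end included, numbered 148 in M and 49 in RS. Of 2375 autosomal bins, counted without calls in dense bins, 4 had no call in M and 16 had none in RS. The densest bin in both lists was chrX:31000001-32000000, with 103 calls in M and 14 in RS. Of the 787 and 154 calls on X, 227 and 47 lay in protein-coding gene bodies. Of 966 protein-coding genes on X, 102 (10.6%) had a call in M, 15 (1.55%) in RS and 7 in both, against 22.9% and 16.8% of all protein-coding genes in the 2 lists.

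Single X genes went different ways. Mid1, which encodes a microtubule-associated ubiquitin ligase and spans the pseudoautosomal boundary in the mouse, had the most calls, 42 in M and 13 in RS. All of them lay in the dense region chrX:169970001-169990000, and the interval of the ratio of 0.686 included 1 (0.338 to 1.30). The X ratio without Mid1 was 0.433 (0.359 to 0.519). Dmd, the very long dystrophin gene, had 11 calls in M and 0 in RS, at least 1.65-fold lower in RS when 3 calls are taken as the upper limit for 0. That fold takes the M count as exact, and the interval of the ratio reached up to 0.883. Cldn34d, of the claudin family, had 9 calls in each list and Apool, a mitochondrial cristae protein gene, had 8 and 7. The calls at Cldn34d and Apool lie on 1 and 2 merged positions in each list, and the intervals of both ratios include 1 (0.780 to 6.30 and 0.599 to 6.12).

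**Figure D2:**
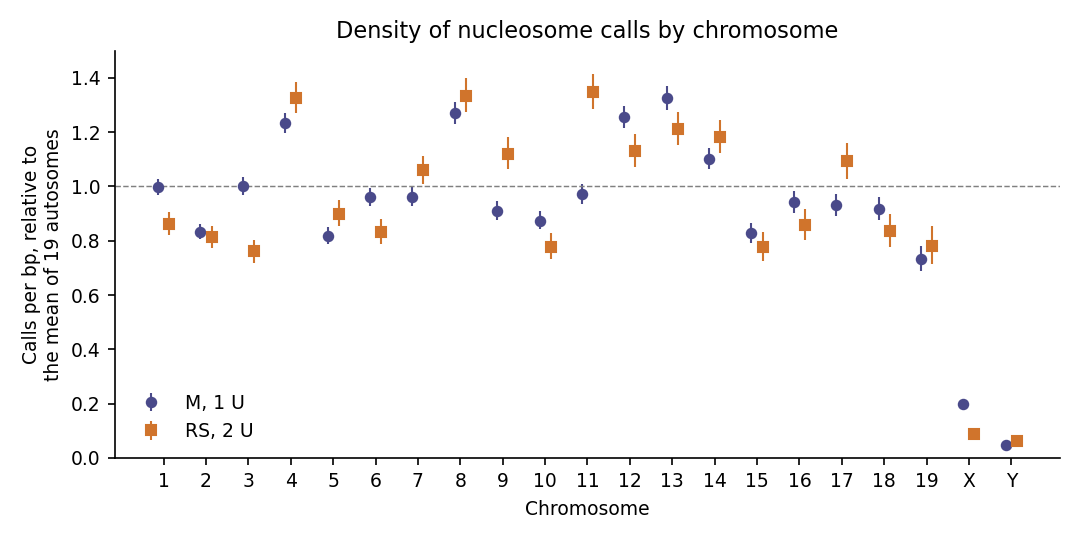
Calls per bp relative to the mean of 19 autosomes (y axis) for each chromosome (x axis), M at 1 U as circles and RS at 2 U as squares, with exact Poisson 95% intervals as bars. X stands at 0.199 in M and 0.0890 in RS, below every autosome in both lists.

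RS calls lay relatively more in gene-rich DNA. On the 21 chromosomes, X and Y included, gene bodies held 31.9% of the calls in M and 37.3% in RS (ratio 1.17, 1.14 to 1.20), and they make up 38.7% of the sequence. DNA between genes held 53.3% and 47.0% (ratio 0.882, 0.863 to 0.901), against 50.9% of the sequence. Windows of 1000 bp on each side of gene ends held 3.34% and 3.91% (ratio 1.17, 1.08 to 1.26). With windows of 500 bp this last ratio was 1.05 (0.945 to 1.15), and for RS at 2 U over M at 2 U it was 0.963 (0.894 to 1.04).

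The gradient with gene content was monotonic. In autosomal bins of 1 Mb outside dense bins, the ratio of RS to M was 0.723 (0.689 to 0.758) in the 282 bins where no protein-coding gene starts. It was 0.880 (0.857 to 0.904) in the 908 bins with 1 to 5 starts and 1.12 (1.09 to 1.16) in the 534 bins with 6 to 10. It was 1.28 (1.23 to 1.33) in the 407 bins with 11 to 20 and 1.35 (1.27 to 1.43) in the 244 bins with more than 20. The density relative to the mean went in M from 1.28 in bins without starts to 0.673 in the richest, and stayed between 0.907 and 1.12 in RS. RS was therefore the flatter list, as the plot of density by gene content shows. Extent of digestion cannot be told apart from stage here.

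**Figure D3:**
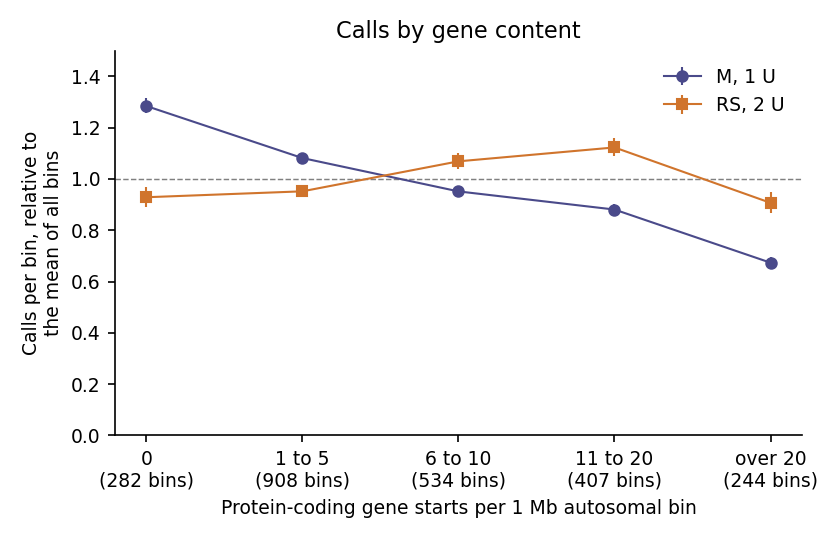
Calls in autosomal 1 Mb bins outside dense bins by number of protein-coding gene starts (x axis), as density relative to the mean of each list (y axis) for M at 1 U (circles) and RS at 2 U (squares), with exact Poisson 95% intervals as bars. M goes from 1.28 to 0.673 with gene content, while RS stays between 0.907 and 1.12.

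Single bins of 1 Mb varied widely. Of 2326 autosomal bins with at least 10 calls, 314 (13.5%) were past 2-fold higher in RS and 330 (14.2%) past 2-fold higher in M. Over 2375 bins, calls in the 2 lists had a Pearson r of 0.578 and a Spearman rho of 0.148, given as a description, since bins share depth and base composition. The bin chr4:114000001-115000000, with 5 genes including Foxd2 and Foxe3, of the forkhead transcription factors, had 38 calls in M and 0 in RS. The bin chr2:89000001-90000000, which holds a cluster of olfactory receptor genes such as Olfr1234 and Olfr1258, had 25 and 0. The bin chr8:52000001-53000000, with no protein-coding gene, had 49 and 1. In the other direction, chr9:108000001-109000000, with 40 genes including Bsn, a presynaptic scaffold, Dag1, dystroglycan, and Usp4, had 0 calls in M and 10 in RS. The bin chr9:55000001-56000000, with Scaper and Nrg4, had 2 and 13. These bins were taken as the extremes of the ratio, so their values describe the range.

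The ratio also changed with gene length, rising up to the middle class and falling after it. Outside dense bins, the ratio of RS to M in calls per 100000 was 1.19 (1.03 to 1.36) over protein-coding genes under 10 kb, 1.46 (1.35 to 1.58) from 10 to 30 kb and 1.56 (1.48 to 1.65) from 30 to 100 kb. It was 1.14 (1.08 to 1.20) from 100 to 300 kb and 0.931 (0.888 to 0.976) for the 556 genes over 300 kb. The ratio was thus lower for the longest genes than for genes of medium length. In calls per 100000 per Mb, M went from 24.1 for genes of 30 to 100 kb to 39.5 for those over 300 kb. RS was nearly level between these 2 classes, at 37.6 and 36.8. M was highest in the longest and the shortest class (39.5 and 38.3), and RS in the shortest (45.5). With M restricted to calls of at least 7 reads the ratio for the longest genes was 1.02 (0.951 to 1.09).

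Genes were compared one by one within their bodies and 1000 bp on each side. Of 21883 protein-coding genes, 6721 (30.7%) had a call in at least 1 of the 2 lists. Of these, 2975 (44.3%) had more calls per 100000 in RS and 3746 (55.7%) more in M. Of the 1418 genes with at least 5 calls, 305 (21.5%) were past 2-fold higher in RS and 350 (24.7%) past 2-fold higher in M. The counting interval also excluded 1 for 80 of them (5.64%) in RS and 51 (3.6%) in M. Scaling by autosomal calls outside dense bins shifts every gene by 0.15 (log2) towards RS and gave 337 and 338 genes.

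The genes with the most extreme ratios in RS, outside dense bins and at most 1 per Mb, had 0 calls in M. The predicted gene Gm21190 (chr5:15524456-15529222) had 9 calls in RS and 0 in M, at least 6.65-fold higher in RS when 3 calls are taken as the upper limit for 0. Nrg4, a growth factor of the neuregulin family (chr9:55220222-55283654), had 7 and 0, at least 5.17-fold higher.

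A group of genes with 6 RS calls and none in M at 1 U, at least 4.43-fold higher in RS, followed. They were Ebf3, a transcription factor of neural and other tissues, Usp4, a deubiquitinase, Mccc2, a subunit of an enzyme of leucine breakdown, Dennd2a, an activator of Rab GTPases, Ehbp1, which links membrane traffic to actin, and Mndal, of the interferon-inducible HIN200 family. Arhgef11, an activator of RhoA, Armh4 and Cfap20dc had 5 and 0, at least 3.69-fold higher. These folds take the RS count as exact. The lower limits of the counting intervals were 2.03 for 5 RS calls, 2.61 for 6, 3.20 for 7 and 4.38 for 9. All 12 had calls in RS at 0.5 U, but only 7 of 12 had calls in RS at 1 U, and 8 and 7 had calls in M at 0.5 U and 2 U. In M at 2 U, Ehbp1 had 6 calls, Ebf3 5 and Gm21190 3. In M at 0.5 U, Mndal had 5 and Gm21190 3. Usp4 and Arhgef11 had no call in any M list. M at 1 U, the list with 0, was also a list by which these genes were picked.

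The corresponding genes of M were taken by the same rule. Grm8, a metabotropic glutamate receptor gene (chr6:27275121-28135146), had 28 calls in M and 0 in RS, at least 4.21-fold lower in RS. Slc24a3, a potassium-dependent sodium and calcium exchanger, had 20 and 0, at least 3.01-fold lower. Here the M count is taken as exact, and the intervals of the ratio reached up to 0.312 for Grm8 and 0.449 for Slc24a3.

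The other named genes of M had 11 to 14 calls against 0. Mlip, which encodes a lamin-interacting protein of muscle, and Thsd7a each had 14, at least 2.11-fold lower in RS. Gpr39, a zinc-sensing receptor, Nalcn, a sodium leak channel, Nox4, an NADPH oxidase, Pdzd2 and Zmat4 each had 13, at least 1.95-fold lower. Grik1, a kainate receptor gene, had 12, at least 1.80-fold lower, and Cyp7b1, an oxysterol hydroxylase gene, had 11, at least 1.65-fold lower. The intervals of the ratio reached up to 0.668 for the genes with 14 calls and 0.883 for Cyp7b1. The median length was 388 kb for the 12 genes of M and 98.8 kb for the 12 genes of RS. Over all genes past 2-fold the gap was smaller, 206 kb for the 350 of M and 146 kb for the 305 of RS, and genes within 2-fold had a median of 248 kb. All 12 genes of M had calls in M at 0.5 U and 2 U and in RS at 0.5 U and 1 U, from 1 at Nox4 to 21 at Grm8 in RS at 1 U. For the genes of M named here, a count of 0 was thus seen in RS at 2 U and in no other list. RS at 2 U was also a list by which they were picked.

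The calls on single genes carried over to the low pair, RS at 1 U over M at 0.5 U, only in part. There, 26.3% of 1313 genes with at least 5 calls were past 2-fold higher in RS and 18.4% past 2-fold higher in M. Of the 305 genes of RS, 147 had at least 5 calls in the low pair. Of these, 44 (29.9%) were past 2-fold in the same direction, near that background, and 19 (12.9%) in the opposite one. Of the 350 genes of M, 217 could be read, and 57 (26.3%) went the same way and 39 (18.0%) the opposite way. Among the named genes, Mndal, Grm8, Mlip, Gpr39, Pdzd2 and Cyp7b1 had the other sign in that pair.

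Lists of genes were then counted by their role in the testis. Ratios for a list are relative to all protein-coding genes, which have the value 1, and distinct calls are counted over the members' windows. Genes of the sperm flagellum had 31 calls in M and 51 in RS, a ratio of 3.24 (2.04 to 5.24). Of 41 members, 12 had more calls in RS, 9 had more in M and 20 had none, so 57.1% of the members with calls leaned to RS, against 44.3% of all genes with calls.

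One long gene weighed on this list. Dnah8, an axonemal dynein heavy chain gene of the testis (chr17:30626935-30875762), had 7 M calls against 23 RS calls, and the ratio without it was 2.30 (1.29 to 4.15). Spag16, of the central apparatus of the axoneme, had 9 and 11 calls, and Odf2, of the outer dense fibres, had 0 and 3. Flagellar genes had ratios from 1.93 (RS at 1 U over M at 1 U) to 9.67 (M calls of at least 7 reads) over the alternatives.

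Genes for the replacement of histones carried few calls. In the sperm chromatin list, 3 of 19 members had more calls in RS, 0 in M and 16 had none. Their calls were 1 in M and 7 in RS, with a ratio of 13.8 and an interval from 1.77 to 622. Cdyl, a chromodomain protein gene linked to histone acetylation in spermatids, had 1 and 5 of these calls. In the low pair the ratio of the list was 0.400, and for RS at 2 U over M at 2 U it was 1.83 (0.578 to 5.51). The protamine genes Prm1 and Prm2 and the transition protein genes Tnp1 and Tnp2 had 0 calls in both lists.

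Genes of histone acetylation, the modification that precedes histone removal, had 43 calls in M and 26 in RS (ratio 1.19, 0.703 to 1.98). Of 54 members, 7 had more calls in RS, 8 had more in M and 39 had none. Hdac9, a histone deacetylase gene, had 12 and 10 calls. Kat6b, an acetyltransferase gene, had 9 and 1, and Supt3, of the SAGA complex, had 6 and 0. Kat8, the acetyltransferase of histone H4 lysine 16, had 0 and 3. Kat2a, which encodes the acetyltransferase Gcn5 named in the title of the series, had 0 calls in both lists and Brdt, the testis bromodomain protein that reads acetylated histones, had 0 and 1.

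Genes of the acrosome, the secretory vesicle of the sperm head, had 20 calls in M and 14 in RS (ratio 1.38, 0.645 to 2.87), with 6 members higher in RS, 7 in M and 15 without calls. Agfg1, needed to form the acrosome, had 0 and 3 calls, and Crisp2, a secreted sperm protein gene, had 3 and 0. Genes of meiosis had 19 and 16 calls (ratio 1.66, 0.799 to 3.41), with 7 members higher in RS, 4 in M and 42 without calls. Mei4 and Rec114, partners in the formation of meiotic double-strand breaks, went apart, with 4 and 6 calls at Mei4 and 5 and 0 at Rec114. Gm960 had 0 and 3. Sycp1 and Sycp3, of the synaptonemal complex, had 0 calls in both lists.

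Genes of other testis cells were few in calls. Genes of spermatogonia had 30 calls in M and 7 in RS (ratio 0.460, 0.171 to 1.07), with Ret, the GDNF receptor, at 6 and 0 and Ccnd2, a cyclin gene, at 4 and 0. Genes of Sertoli cells had 22 and 6 (ratio 0.538, 0.178 to 1.37), with the transcription factor gene Wt1 at 4 and 0 and Gata4 at 0 and 3. Genes of Leydig cells had 0 and 8, at least 5.26-fold higher in RS, with Fdx1, of steroid synthesis, at 0 and 4 and Nr5a1, the steroidogenic factor, at 0 and 3. The lower limit of the counting interval of the Leydig list was 3.37. Genes of other cells, of peritubular muscle, macrophages and vessels, had 15 and 8 (ratio 1.05, 0.386 to 2.64), with Adgre1 at 1 and 4 and Tek at 5 and 0. The part of the other cells in either fraction was not tested.

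The chemosensory receptor families, which are silent in most tissues and lie in gene-dense clusters, leaned to M. Olfactory receptor genes had 138 calls in M and 26 in RS, a ratio of 0.371 (0.234 to 0.568). Of 1110 members, 18 had more calls in RS, 88 had more in M and 1004 had none. Olfr1280 had 4 and 0 calls and Olfr943 had 0 and 4. Vomeronasal type 1 receptor genes had 20 and 2 calls (ratio 0.197, 0.0223 to 0.812), with 1 of 230 members higher in RS and 9 in M, and Vmn1r14 and Vmn1r15 at 3 and 0. Vomeronasal type 2 receptor genes had 135 and 35 calls (ratio 0.511, 0.342 to 0.746), with 14 of 123 members higher in RS and 45 in M. Vmn2r112 had 7 and 0 calls, and Vmn2r117 had 5 and 0. Scaled by autosomal calls outside dense bins, the interval of the type 1 receptors reached 1.01, and in the low pair their ratio was 1.04. For the type 2 receptors the ratio was 0.936 (0.471 to 1.78) with calls of over 6 reads. For RS at 2 U over M at 2 U it was 0.839 (0.553 to 1.25). The ratio of the olfactory receptors was 0.731 (0.527 to 1.01) in the low pair.

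The zinc finger genes named Zfp, many of them in clusters of KRAB repressors, had 564 calls in M and 361 in RS (ratio 1.26, 1.10 to 1.44). Of 367 members, 56 had more calls in RS, 55 in M and 256 had none. This ratio was 0.859 (0.727 to 1.02) with M calls of at least 7 reads. Of the members, 9 lie in dense bins, and without dense bins the ratio was 1.14 with an interval that included 1 (0.942 to 1.37). Zfp27 and Zfp65 had 0 and 3 calls each.

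The remaining lists had at most 9 calls in either stage. Housekeeping genes had 3 and 4 calls over 27 members, 25 of them without a call, with Psmb2, a proteasome subunit gene, at 1 and 3. Ribosomal protein genes had 9 and 2 over 80 members, with Rps6 at 3 and 0. Replication-dependent histone genes had 4 and 3 over 63, with H4c14 at 2 and 3. The Hox genes had 4 and 2, the clustered protocadherins 7 and 4, and the multicopy genes of X and Y 2 and 2. The protocadherin members Pcdhga1 and Pcdhga2, at 4 and 0 each, overlap and share calls. None of these intervals excluded 1. Of the 19 lists, those of flagellum, sperm chromatin, Leydig cells and Zfp genes had intervals above 1 and the 3 receptor families had intervals below 1. Among these, the interval of the flagellum list stayed above 1 in all 9 alternatives run for it.

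**Figure D4:**
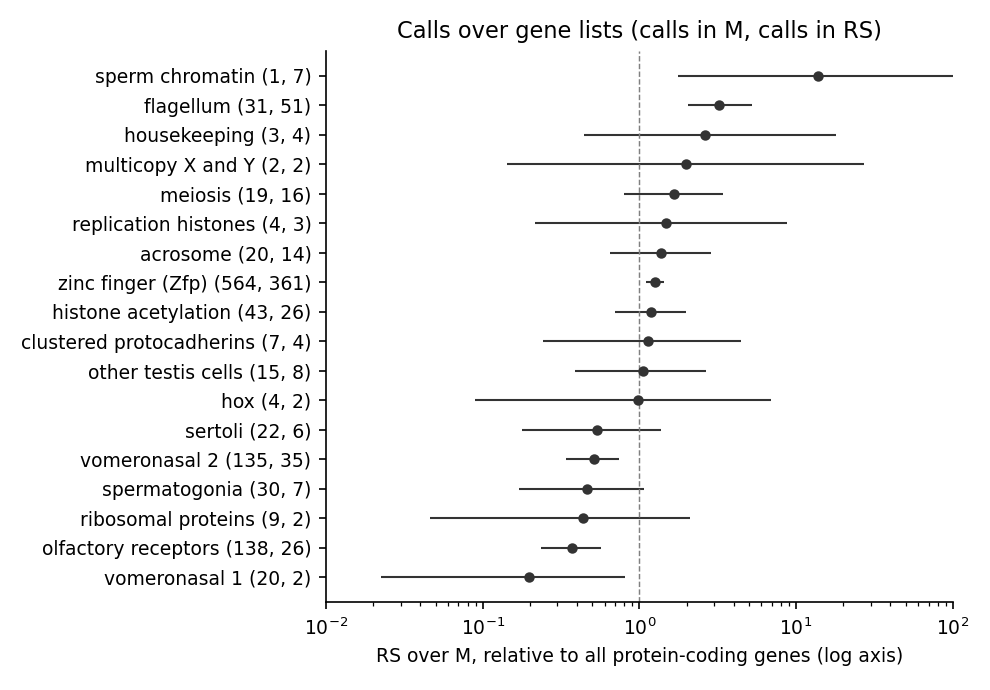
Ratio of RS at 2 U to M at 1 U in calls over each gene list, relative to all protein-coding genes (log axis), with 95% intervals from the counts. The Leydig list, with 0 calls in M, is not drawn, and the interval of the sperm chromatin list, cut at the edge of the axis, runs to 622. Flagellar genes stand at 3.24 and olfactory receptor genes at 0.371.

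The lists were next compared position by position. A call was shared when the other list had a midpoint within 73 bp. Of the calls of M, 11.1% were shared, and of those of RS 23.0%. Outside dense bins the shares were 2.36% and 5.52%, and within dense bins 60.5% and 79.2%. Dense bins were chosen by their number of calls, in these 2 lists among others. Many calls in 10 kb also raise sharing by closeness alone, and no chance level was computed. Sharing depended on reads also outside the dense bins: of calls with 6 reads, 0.975% in M and 2.33% in RS were shared, and of calls with 10 or more reads 70.4% and 93.7%. In merged positions, 994 were shared, 2.69% of M and 6.27% of RS, and 416 of them lay outside dense bins.

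The strongest shared positions lie both in genes and between them. Of 386 shared RS positions on the chromosomes outside dense bins, 114 (29.5%) lie in protein-coding genes, and 64 had 10 or more reads in both lists. Gene bodies held 37.3% of all RS calls and 31.9% of all M calls on the chromosomes, and are 38.7% of the sequence. Those shares count single calls and include dense bins. The interval chr6:103649102-103649301 in Chl1, a neural adhesion gene, reached the highest counts that the p-values can give, 142 in M and 138 in RS. Within Aida, at chr1:183299202-183299611, a position had 105 and 86 reads. Positions in Kctd16, which encodes an auxiliary subunit of GABA-B receptors, had 80 and 91, and in Lars2, the mitochondrial leucyl-tRNA synthetase gene, 55 and 49. The shared position in Cldn34d on X had 74 and 46. Of all 6690 shared calls of M, 5486 lay in dense bins, so most shared calls were in few places. That concentration follows in part from how dense bins were chosen.

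**Figure D5:**
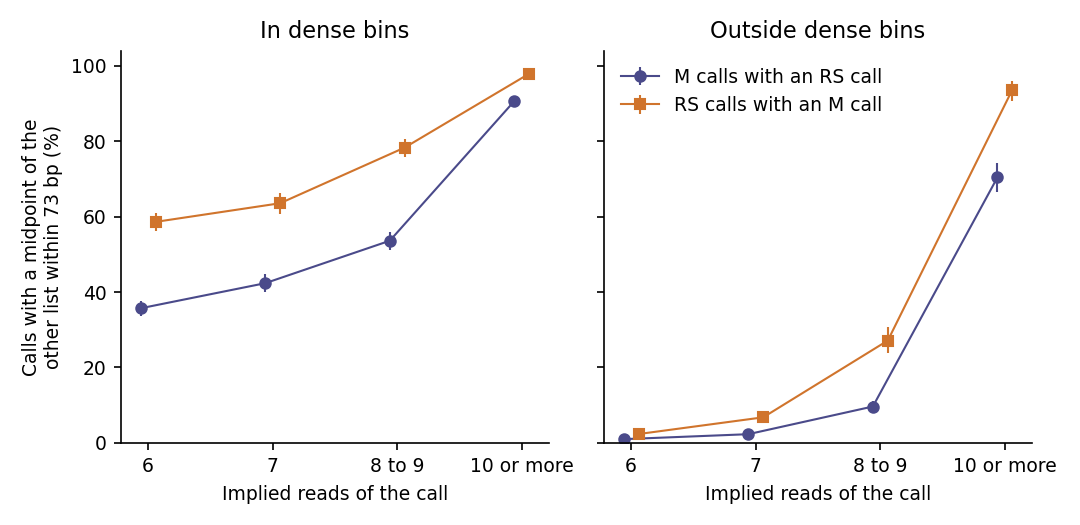
Percent of calls with a midpoint of the other list within 73 bp (y axis) by implied reads (x axis), within and outside dense bins, for M at 1 U and RS at 2 U, with exact binomial 95% intervals. Outside dense bins the share rises from 0.975% to 70.4% in M and from 2.33% to 93.7% in RS.

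Dense bins took a larger share of RS than of M, 23.8% against 15.1%. They join into 128 regions on the chromosomes. Of the 92 with at least 20 calls, 71 had a larger share of the RS list, 21 (22.8%) were past 2-fold higher in RS and 5 (5.43%) past 2-fold higher in M, and the median ratio was 1.33. The region chr11:3120001-3200000, with Sfi1, a centriole gene, and the pseudogene Pisd-ps1, had 714 calls in M and 682 in RS, a ratio of 2.12 (1.90 to 2.36) on the share of calls. At chr17:39840001-39850000, with the 18S ribosomal RNA-related gene Rn18s-rs5, there were 159 and 163 calls (ratio 2.27, 1.82 to 2.85). The region chr7:38170001-38200000, with 1600014C10Rik and D530033B14Rik, had 268 and 257 (2.13, 1.78 to 2.53), and chr9:3000001-3040000, with Mir101c, had 267 and 246 (2.04, 1.71 to 2.44). These 4 regions kept nearly the same number of calls in a list with 0.451 times as many calls in all. Equal numbers of calls give a ratio of 2.22 by the scaling alone, as at chr14:19600001-19610000 with 30 and 30. Regions past 2-fold higher in RS therefore include some without more calls in RS. The chr17 region was named after its values were seen.

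The other dense regions went different ways. The largest, chr13:12790001-12950000 around the prolactin family gene Prl2c3, had 906 and 409 calls (ratio 1.00, 0.888 to 1.13). The immunoglobulin heavy chain region chr12:115590001-115650000 (Igh) had 238 and 102 (0.950, 0.746 to 1.20), and chr4:147390001-147460000, with Zfp978 and Zfp982, had 241 and 195 (1.79, 1.48 to 2.18). At chr1:24610001-24620000, with Gm10222 and Gm10925, there were 75 calls in M and 0 in RS, named after its values were seen. Repeated sequence and the copy number of these regions were not tested.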

How the data were processed

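MNase-seq of 2 groups, M at 1 U and RS at 2 U, was analysed from 1 list of calls per group, each made from both replicates. STAR 2.5.2a and the build GRCm38/mm10 are listed in the submitters' processing notes; the nucleosome caller is not given in the sources used here. The lists hold 140 bp intervals, each with the authors' deposited p-value and no read counts. Depth is therefore known only through the mean reads that the p-values imply. The p-values were matched to upper Poisson tails to give implied reads, with a minimum of 6. Calls were placed by midpoint, and by overlap of any base for promoter windows, with Python 3.11.15, numpy 2.4.6, pandas 2.3.3 and scipy 1.17.1. Genes and promoter windows came from RefSeq tables (GRCm38.p6) with 21883 protein-coding genes and 32817 promoter windows, and no window on chromosome 18 was analysed here. Calls on contigs entered only list sizes and list-wide shares.

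Ratios are of calls per 100000 calls of a list, with exact conditional binomial 95% intervals. Near over far at start sites has a normal interval from the counts of start and call pairs, treated as independent. Shares have Clopper-Pearson intervals. Log2 ratios of genes used a pseudocount of 0.5. A fold against 0 calls uses 3 calls per list as the floor and takes the other count as exact. It is therefore not the limit of an interval. Named genes were the 12 most extreme on each side outside dense bins with at least 5 calls and at most 1 per Mb, the 2 most different members of each list with at least 3 calls, the genes of the 6 largest dense regions, 8 set genes, and the 3 promoters with most calls in each class. Of the genes chosen by these rules, 3 are not reported here. Any other name, and the start site and gene length analyses, were picked with the values already seen. Members, lists and rules were chosen with earlier results of these data known. The steps were checked on simulated data. Alternatives covered call thresholds, merging, dense bins, windows, scaling and other pairs of lists.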

Additional observations from a re-analysis of the deposited data

Results flagged for a closer look

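Calls on unplaced contigs were used in none of the comparisons by gene or chromosome. M at 1 U had 2244 such calls and RS at 2 U had 1983, which is 3.74% (3.58 to 3.89) and 7.32% (7.01 to 7.63) of the lists. Most lay on the contig JH584304, with 1729 in M and 1655 in RS. They stand out because calls appear in sequence outside the main measurement, and no control sample was available to set them against.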

How the results depend on the processing

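Presence of a call rests on few reads, since most calls stand at the minimum of 6. Of 14 alternatives tried, the ratio of X stayed below 1 in all that gave it, from 0.219 to 0.572, and so did bins without gene starts, from 0.630 to 0.875, and the start site ratio, from 0.525 to 0.812. The order of list sizes turned with M calls of at least 7 reads, which removes the calls at the minimum from M alone; for the other changes the cause was not tested. With calls of over 6 reads in both lists, ratios of RS to M were 0.486 (list size), 0.547 (X), 1.45 (bins with over 20 starts), 0.710 (promoters) and 0.840 (genes over 300 kb). In that setting, shared calls were 25.6% of M, 5.38% of M outside dense bins, 49.9% of RS and 14.9% of RS outside dense bins. Genes past 2-fold numbered 53 higher in RS and 99 higher in M. Gene lists with an interval off 1 numbered 2 above and 1 below. With M calls of at least 7 reads, ratios of RS to M were 1.43 (list size), 0.539 (X), 0.650 (Y), 1.01 (gene ends), 0.929 (between genes), 0.556 (near over far at starts) and 1.02 (genes over 300 kb). In that setting, shared calls were 29.1% of M, 6.80% of M outside dense bins, 20.4% of RS and 4.15% of RS outside dense bins. Genes past 2-fold numbered 136 higher in M. Gene lists with an interval off 1 numbered 1 above and 1 below. The ratio of the Zfp list turned to 0.859. With overlapping calls merged, ratios of RS to M were 0.429 (list size) and 0.372 (X). In that setting, shared calls were 2.69% of M, 1.20% of M outside dense bins, 6.27% of RS and 2.91% of RS outside dense bins. Genes past 2-fold numbered 140 higher in RS and 136 higher in M. For RS at 2 U over M at 2 U, ratios of RS to M were 0.413 (list size), 0.572 (X), 1.07 (gene bodies), 0.963 (gene ends), 0.931 (between genes), 0.875 (bins without gene starts), 1.15 (bins with over 20 starts), 0.803 (promoters) and 1.35 (genes of 30 to 100 kb). In that setting, shared calls were 24.3% of RS and 5.996% of RS outside dense bins. Gene lists with an interval off 1 numbered 2 above. For RS at 1 U over M at 1 U, ratios of RS to M were 0.693 (list size), 0.348 (X), 0.917 (between genes), 0.798 (bins without gene starts), 1.26 (bins with over 20 starts), 0.791 (promoters), 0.525 (near over far at starts), 1.37 (genes of 30 to 100 kb) and 0.977 (genes over 300 kb). In that setting, shared calls were 12.5% of M, 2.94% of M outside dense bins, 17.4% of RS and 4.32% of RS outside dense bins. The log2 ratio of Grm8 turned to 0.12. For RS at 1 U over M at 0.5 U, ratios of RS to M were 0.988 (list size), 0.219 (X), 1.27 (gene bodies), 1.53 (gene ends), 0.856 (between genes), 0.630 (bins without gene starts), 1.58 (bins with over 20 starts), 1.32 (promoters) and 1.72 (genes of 30 to 100 kb). In that setting, shared calls were 14.0% of M, 2.95% of M outside dense bins, 14.9% of RS and 3.10% of RS outside dense bins. Log2 ratios turned to -3.44 for Mndal, 0.59 for Grm8, 0.50 for Mlip and Gpr39, 0.65 for Pdzd2 and 1.60 for Cyp7b1. List ratios turned to 0.400 for sperm chromatin and 1.04 for vomeronasal type 1 receptors. With gene ends of 500 bp, the ratio was 1.05 (gene ends). With sharing within 20 bp, shared calls were 8.72% of M, 1.75% of M outside dense bins, 18.9% of RS and 4.30% of RS outside dense bins. With sharing within 140 bp, shared calls were 12.6% of M, 2.74% of M outside dense bins, 24.98% of RS and 6.30% of RS outside dense bins. With dense bins kept, the ratio was 0.839 (genes over 300 kb). No paired analysis was possible because each list pools both replicates of a group, and leaving out a replicate could not be run for the same reason.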
